A study of Homo sapiens with 5 samples.

Results

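Distal intronic SF-1 sites are the ChIP-seq peaks that lie in the introns of genes, far from any gene start. A peak was taken as distal intronic when its centre fell inside the body of a protein-coding gene, in no annotated exon of any gene, and more than 10 kb from every protein-coding gene start. Of 30372 peaks in 4 lists, 8702 met this rule. They numbered 1544 of 4393 in the basal Millipore list, 3677 of 11910 in the overexpressed Millipore list, 1666 of 6616 in the basal Perseus list and 1815 of 7453 in the overexpressed Perseus list. The lists came from chromatin immunoprecipitation of steroidogenic factor-1 (SF-1, encoded by NR5A1) in H295R/TR SF-1 cells. These are a subclone derived from H295R, a human adrenocortical tumor line, and in them doxycycline switches on extra SF-1. Basal cells carried the same inducible construct and received no doxycycline, and overexpressed cells were kept with it for 3 days. Each dosage was precipitated with 2 antibodies, called Millipore and Perseus after their suppliers, and each list was called on 3 pooled libraries against the same input DNA. There is thus 1 list per combination of dosage and antibody, all from a subclone of a tumor line, and no error between replicates can be given. Intervals below are 95% Wilson intervals for shares, Newcombe intervals for differences and exact Poisson intervals for densities. They cover counting error over peaks only, and the read depth behind each list is unknown.

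SF-1 is a nuclear receptor that binds DNA as a monomer, at a nuclear receptor core sequence extended at its 5′ end, and is best known for its action at the promoters of steroidogenic genes in the adrenal cortex and gonads. Introns hold many of the enhancers of a genome, and an enhancer in an intron may act on its host gene or on a neighbour. A host gene is therefore only the gene whose body contains a site. Long genes contain more intronic sequence, so counts per gene were set beside the number of bases in which a site could have met the rule, called eligible bases.

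The best-ranked distal intronic sites carried different sequence. The sequences that follow are 120-base windows on the plus strand of hg19. Where a window holds the SF-1 consensus or the NRSF/REST consensus, 1 copy is in capitals, also when it reads on the minus strand, as in PALM. They are shown because they are the sites with the best ranks in all 4 lists, the best-ranked member of a list, or the best-ranked member with the NRSF/REST consensus. The first is chr19:727310-727429 in intron 3 of the canonical transcript of PALM, which encodes the membrane-bound phosphoprotein paralemmin. The second is chr11:68585115-68585234 in intron 1 of CPT1A, which encodes the enzyme that commits long-chain fatty acids to mitochondrial oxidation. The third is chr7:47514901-47515020 in intron 4 of TNS3, which encodes tensin 3, a focal adhesion protein. The fourth is chr9:94489601-94489720 in intron 7 of ROR2, a receptor for Wnt ligands.
PALM: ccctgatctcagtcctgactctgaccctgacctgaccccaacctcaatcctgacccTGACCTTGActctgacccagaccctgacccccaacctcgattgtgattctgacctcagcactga
CPT1A: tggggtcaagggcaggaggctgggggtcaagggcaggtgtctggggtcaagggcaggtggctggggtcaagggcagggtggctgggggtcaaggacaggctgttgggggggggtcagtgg
TNS3: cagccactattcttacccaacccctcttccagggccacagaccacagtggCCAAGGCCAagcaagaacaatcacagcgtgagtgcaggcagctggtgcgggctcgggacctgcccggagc
ROR2: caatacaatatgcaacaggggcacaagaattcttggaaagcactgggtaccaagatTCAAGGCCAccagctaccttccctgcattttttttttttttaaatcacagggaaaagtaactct

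Further windows show the members that led single lists. The best-ranked member of the overexpressed Millipore list lay in intron 4 of PHKB, a subunit of phosphorylase kinase, and its window was chr16:47538740-47538859. The best-ranked member of the overexpressed Perseus list lay in intron 1 of MYO1D, an unconventional myosin, with the window chr17:31149740-31149859. The best-ranked member with the NRSF/REST consensus in both Millipore lists lay in intron 15 of SHANK2, a scaffold of the postsynaptic density, with the window chr11:70496494-70496613. In the overexpressed Perseus list it lay in intron 1 of DNAJC6, which encodes the clathrin-uncoating cofactor auxilin, with the window chr1:65775551-65775670. The SHANK2 window holds a further copy of the NRSF/REST consensus, left in lower case. The best-ranked member of the basal Perseus list, in VPS13B, is named only. The PHKB, MYO1D and CPT1A windows held no copy of the SF-1 consensus.
PHKB: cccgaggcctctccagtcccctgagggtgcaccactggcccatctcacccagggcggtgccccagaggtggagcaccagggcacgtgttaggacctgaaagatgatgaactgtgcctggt
MYO1D: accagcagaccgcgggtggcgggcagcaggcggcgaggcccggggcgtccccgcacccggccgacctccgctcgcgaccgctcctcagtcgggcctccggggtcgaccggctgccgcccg
SHANK2: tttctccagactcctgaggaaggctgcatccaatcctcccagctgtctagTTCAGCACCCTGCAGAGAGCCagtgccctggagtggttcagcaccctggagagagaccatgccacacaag
DNAJC6: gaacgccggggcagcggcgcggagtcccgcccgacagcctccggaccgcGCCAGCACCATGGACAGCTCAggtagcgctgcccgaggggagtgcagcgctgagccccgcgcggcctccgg

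Distal introns took a larger share of the Millipore lists than of the Perseus lists, and the lists lay closer to each other once peaks near gene starts were set aside. The share was 35.1% (33.7 to 36.6) in the basal Millipore list, 30.9% (30.05 to 31.7) in the overexpressed Millipore list, 25.2% (24.2 to 26.2) in the basal Perseus list and 24.4% (23.4 to 25.3) in the overexpressed Perseus list. The overexpressed minus basal difference was -4.27 percentage points (-5.92 to -2.64) with the Millipore antibody and -0.829 points (-2.26 to 0.599) with the Perseus antibody, so the second interval included 0. The Perseus minus Millipore difference was -9.97 points (-11.7 to -8.21) at basal and -6.52 points (-7.79 to -5.23) at overexpressed dosage. Of the known bases of the 24 chromosomes, 35.9% (1027 of 2859 Mb) met the same rule, so no list held more members than its share of bases. Among peaks more than 10 kb from every start, members made up 42.1%, 44.5%, 42.5% and 42.4% in the same order of lists, where 40.6% of the bases at that distance met the rule. On that base the overexpressed minus basal difference was 2.39 points (0.460 to 4.31) with Millipore and -0.176 points (-2.32 to 1.96) with Perseus, and the Perseus minus Millipore difference was 0.438 points (-1.79 to 2.66) at basal and -2.13 points (-3.95 to -0.297) at overexpressed dosage. Density over the eligible bases was 1.504 members per Mb (1.43 to 1.58) in the basal Millipore list, 3.58 (3.47 to 3.70) in the overexpressed Millipore list, 1.62 (1.55 to 1.70) in the basal Perseus list and 1.77 (1.69 to 1.85) in the overexpressed Perseus list. The limit of 10 kb did not separate a dense from a sparse zone: between 9 and 10 kb from a start the lists held 23, 75, 34 and 45 intronic peaks, and between 10 and 11 kb 28, 84, 32 and 38.

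**Figure D1:**
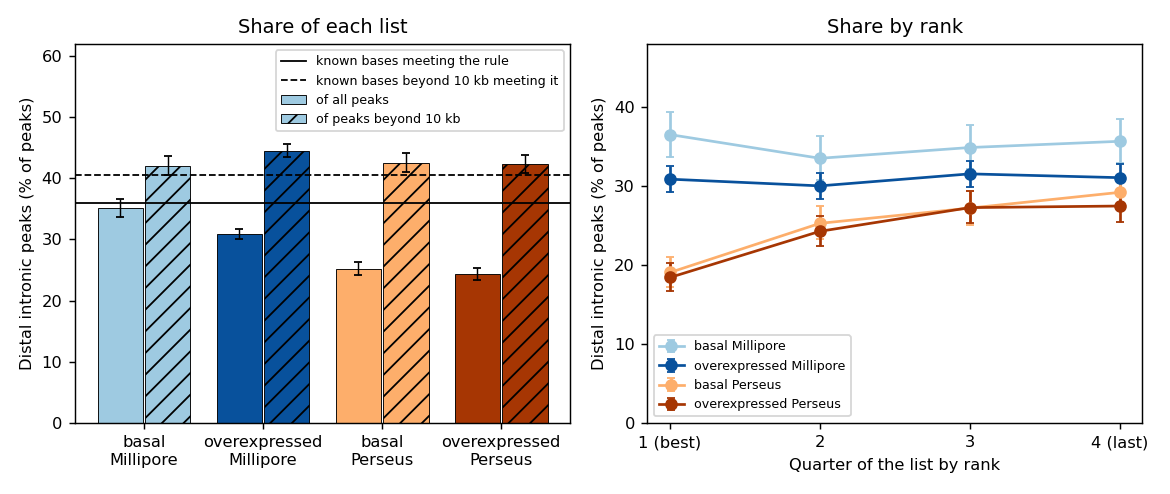
Left, distal intronic peaks as a percentage of all peaks (plain bars) and of peaks more than 10 kb from every gene start (hatched bars) in the 4 lists, with 95% Wilson intervals and lines for the share of known bases that meet the same rule. Right, their percentage in each 25% of a list by rank. The plain bars fall from 35.1% to 24.4%, the hatched bars all lie between 42.1% and 44.5%, and the share rises from the best-ranked to the last 25% in the Perseus lists only.

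The place of distal introns in the rank order differed between the antibodies. In the Millipore lists members were spread evenly, with 36.5% of the best-ranked 25% and 35.7% of the last 25% at basal dosage, and 30.9% and 31.1% at overexpressed dosage. In the Perseus lists the share rose from 19.0% (17.2 to 21.01) of the best-ranked 25% to 29.2% (27.1 to 31.4) of the last at basal dosage, and from 18.4% (16.7 to 20.2) to 27.5% (25.5 to 29.5) at overexpressed dosage. Among the 100 best-ranked peaks the Millipore lists had 40 members at basal and 29 at overexpressed dosage, and the Perseus lists 6 and 9. The best-ranked 25% of the basal Perseus list held 21.1% members when peaks within 1 Mb of long runs of unknown bases were left out. Such peaks were rare among the members themselves, from 0.360% to 0.661% of a list's members, and made up 13.0% of the basal Perseus peaks outside genes beyond 10 kb.

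The members that led each list lay in genes of unlike function. In the basal Millipore list they were PALM (rank 6), SHANK2 (rank 11) and L1CAM (rank 12), a neural cell adhesion molecule. In the overexpressed Millipore list they were PHKB (rank 13), SHANK2 (rank 14) and MYO1D (rank 15). In the basal Perseus list they were VPS13B (rank 22), a vacuolar sorting protein, MYO1D (rank 26) and ANKRD30BL (rank 30). In the overexpressed Perseus list they were MYO1D (rank 26), GALNT2 (rank 39), which starts mucin-type O-glycosylation, and ANKRD30BL (rank 47). The MYO1D site stood at rank 2581 in the basal Millipore list and at rank 15, 26 and 26 in the other lists. The SHANK2 and L1CAM sites were in no Perseus list, and the VPS13B, ANKRD30BL and GALNT2 sites in no Millipore list. Part of the sequence under the ANKRD30BL and MYO1D sites occurs elsewhere in the assembly. Of the 32-base words of the 2 named ANKRD30BL peaks, 23.8% and 50.9% were repeated. For MYO1D it was 26.4% in the overexpressed Millipore, 21.5% in the basal Perseus and 22.0% in the overexpressed Perseus peak. Over all members, peaks with 50% or more repeated words made up 0.324% and 0.626% of the Millipore members and 2.70% and 2.75% of the Perseus members, at basal and overexpressed dosage.

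The 5 sites found as members in all 4 lists with the best ranks were in PALM, CPT1A, TNS3, ASAP1 and ROR2. The PALM site, 18.4 kb from the nearest start, had rank 6 in the basal Millipore, 24 in the overexpressed Millipore, 147 in the basal Perseus and 371 in the overexpressed Perseus list. The CPT1A site had ranks 52, 494, 181 and 226 in the same order, and the TNS3 site 537, 30, 397 and 635. ASAP1 encodes a GTPase-activating protein for Arf proteins, and its site had ranks 426, 159, 902 and 640. The ROR2 site had ranks 271, 1003, 144 and 650. Ranks order peaks within a list and are not on 1 scale between lists. The PALM, TNS3, ASAP1 and ROR2 sites held the SF-1 consensus, and the CPT1A site did not.

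Within genes, members were spread along the introns, with a moderate excess toward starts and exons. The median distance from the nearest gene start was 68.4 kb in the basal Millipore, 49.8 kb in the overexpressed Millipore, 53.7 kb in the basal Perseus and 50.9 kb in the overexpressed Perseus list, where it was 74.7 kb over the eligible bases. The median distance from the nearest exon was 3.71, 2.53, 2.90 and 2.60 kb, against 4.11 kb over the eligible bases. Of the members inside an intron of the canonical transcript, 21.1% (19.0 to 23.3), 21.7% (20.4 to 23.2), 23.2% (21.2 to 25.4) and 22.9% (20.9 to 24.9) were in the first intron, which held 20.2% of the eligible bases. The fourth and later introns held from 50.8% to 52.9% of them, against 53.9% of the bases. Many members lay near a start of a shorter transcript. An annotated start of another transcript of a protein-coding gene was within 10 kb of 35.4% of basal Millipore, 42.1% of overexpressed Millipore, 39.0% of basal Perseus and 41.0% of overexpressed Perseus members, and of 31.1% of the eligible bases. Within 1 kb of such a start were 6.28%, 10.6%, 10.02% and 12.0% of the members, against 4.38% of the bases. Sites that a rule on gene starts calls distal thus include sites near annotated internal starts. The share of members with the SF-1 consensus within and beyond 10 kb of these starts was 20.3% and 15.6% for basal Millipore, 14.1% and 10.99% for overexpressed Millipore, 30.8% and 26.5% for basal Perseus and 24.6% and 22.1% for overexpressed Perseus.

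Most distal intronic peaks were found in 1 list only, and in 3 of the 4 lists they recurred at the other dosage less often than peaks near gene starts. A member was counted as shared when it overlapped a peak of the other list by at least 1 bp. Found in no other list were 80.3% of basal Millipore, 86.7% of overexpressed Millipore, 71.2% of basal Perseus and 68.4% of overexpressed Perseus members. With the Millipore antibody 11.1% (9.67 to 12.8) of basal members overlapped a peak at overexpressed dosage, and 4.65% (4.02 to 5.38) of overexpressed members overlapped a basal peak. With all lists cut to their 4393 best-ranked peaks the order of these 2 shares turned, to 7.06% of basal and 8.02% of overexpressed members. With the Perseus antibody and the lists at full length the shares were 19.4% (17.6 to 21.4) and 17.9% (16.2 to 19.7). Between antibodies, 11.01% of basal Millipore and 10.2% of basal Perseus members were shared, and 8.84% of overexpressed Millipore and 18.1% of overexpressed Perseus members. Start-proximal peaks, within 10 kb of a start, were more often shared between dosages than members in 3 of the 4 lists. The member minus start-proximal difference was -11.3 points (-14.8 to -7.98) in the basal Millipore list, -19.0 points (-21.6 to -16.3) in the basal Perseus and -14.9 points (-17.2 to -12.4) in the overexpressed Perseus list, and 0.207 points (-0.751 to 1.17) in the overexpressed Millipore list. Between antibodies the difference was 4.61 points (2.96 to 6.35) in the basal Perseus list, where members were more often shared than start-proximal peaks, and -9.79, -9.65 and -3.26 points in the basal Millipore, overexpressed Millipore and overexpressed Perseus lists. Between dosages, members were more often shared than distal peaks outside genes in the basal Millipore list (2.24 points, 0.221 to 4.30) and less often in the basal Perseus (-5.30 points, -8.00 to -2.57) and overexpressed Perseus lists (-5.62 points, -8.16 to -3.06). Of these Perseus peaks outside genes, 13.0% at basal and 11.3% at overexpressed dosage lay beside long runs of unknown bases. Peaks with 50% or more repeated words made up 9.20% and 8.37% of them. Their part in the comparisons with distal peaks outside genes was not tested. Members exceeded distal peaks outside genes in sharing with the other antibody in all 4 lists, by 2.97, 1.81, 2.48 and 5.42 points, with all 4 intervals above 0. When a member overlapped a peak of another list at the same dosage or antibody, that peak was a member too in 97.1% to 99.4% of cases.

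**Figure D2:**
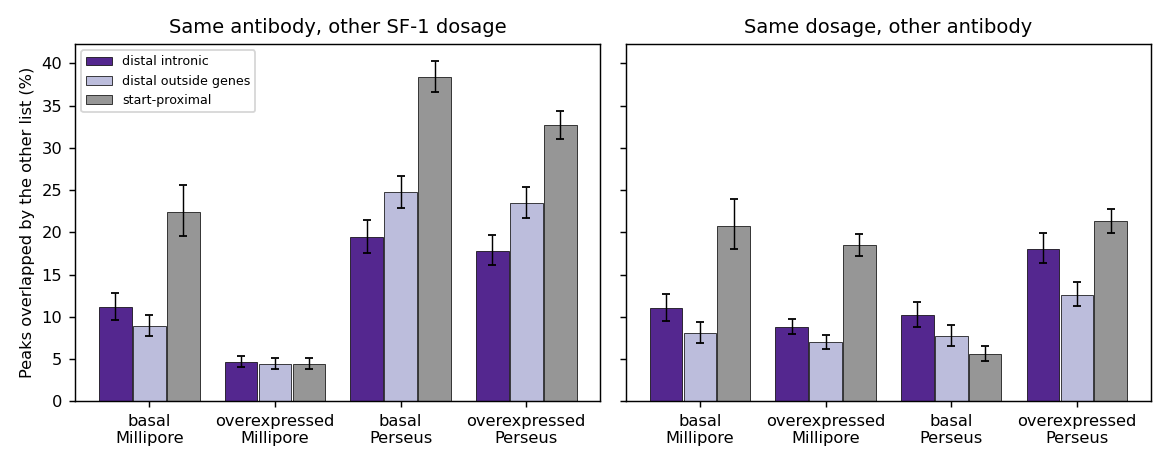
Percentage of peaks of each list that overlap a peak of the other dosage with the same antibody (left) or of the other antibody at the same dosage (right), for distal intronic, distal outside-gene and start-proximal peaks, with 95% Wilson intervals. Distal intronic peaks are shared between dosages at 4.65% to 19.4%, below the start-proximal peaks except in the overexpressed Millipore list.

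Better-ranked members were shared more often than those ranked last. In the basal Millipore list 25.4% (21.4 to 29.9) of the members in the best-ranked 25% were also found with the Perseus antibody, against 4.85% (3.12 to 7.45) of those in the last 25%. In the overexpressed Millipore list these shares were 20.3% and 3.46%, in the basal Perseus list 19.0% and 5.59%, and in the overexpressed Perseus list 32.4% and 12.7%. Merging overlapping members of all lists gave 7665 sites, of which 6886 (89.8%) were in 1 list, 583 (7.61%) in 2, 146 (1.90%) in 3 and 50 (0.652%) in 4. The overexpressed Millipore list alone supplied 3198 sites, 41.7% of the total. The largest groups in 2 lists were 184 sites in both overexpressed lists and 171 in both Perseus lists, and there were 72 in both Millipore lists and 63 in both basal lists.

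The sites that were members with both antibodies at 1 dosage only can be illustrated by those with the best ranks, which were chosen after their values were seen. At basal dosage they lay in FOXN3, a forkhead repressor, with rank 75 in the Millipore and 187 in the Perseus list, in TCF12, a basic helix-loop-helix factor, with ranks 261 and 670, and in MYO18A, a myosin, with ranks 337 and 771. At overexpressed dosage they lay in CEMIP2, a hyaluronidase, with ranks 171 and 240, in PSTPIP1, a cytoskeletal adaptor, with ranks 37 and 323, and in TKT, the transketolase of the pentose phosphate pathway, with ranks 642 and 428. The SF-1 consensus was in 38 of the 63 sites of both basal lists (60.3%, 47.98 to 71.5) and in 68 of the 184 of both overexpressed lists (36.96%, 30.3 to 44.1).

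The SF-1 consensus marked a minority of members in every list and was far more frequent in them than in the DNA beside them. The consensus was searched on both strands as any of 8 words of 9 letters, spelled out with their copies further on. Estrogen-related receptors bind such words as well. It was present in 17.3% (15.5 to 19.3) of basal Millipore members, 12.3% (11.3 to 13.4) of overexpressed Millipore members, 28.2% (26.0 to 30.4) of basal Perseus members and 23.1% (21.3 to 25.1) of overexpressed Perseus members. Windows of the same width 5 kb to each side held it in 1.26%, 1.69%, 0.960% and 1.02% of cases. With the shorter core AAGGTCA the gap was smaller, since 14.4%, 11.4%, 23.3% and 20.7% of members and 2.46%, 3.15%, 2.88% and 3.11% of windows held it. At full list length the consensus share was lower at overexpressed dosage with each antibody, by a difference of -5.00 points (-7.22 to -2.89) with Millipore and -5.01 points (-7.91 to -2.11) with Perseus. With all lists cut to their 4393 best-ranked peaks the Millipore order turned, to 17.3% of basal and 18.4% of overexpressed members, and the Perseus shares were 31.1% and 27.5%. At full length it was higher with Perseus than with Millipore, by 10.9 points (7.98 to 13.7) at basal and 10.8 points (8.67 to 13.1) at overexpressed dosage. Mean GC content moved with these lists: it was 45.6% in basal and 53.3% in overexpressed Millipore members, and 44.6% and 46.7% in the Perseus members, against 41.6%, 46.4%, 42.1% and 43.7% in the windows. The part of GC content in the consensus shares was not tested.

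Members held the consensus more often than distal peaks outside genes in all 4 lists. The difference was 5.66 points (3.29 to 8.06), 3.96 points (2.58 to 5.35), 10.4 points (7.68 to 13.2) and 7.88 points (5.395 to 10.4) in the basal Millipore, overexpressed Millipore, basal Perseus and overexpressed Perseus lists. Against start-proximal peaks the order depended on the list. In the Perseus lists members held it more often, by 8.56 points (5.95 to 11.2) at basal and 8.15 points (5.87 to 10.5) at overexpressed dosage. In the basal Millipore list the difference was -6.12 points (-9.81 to -2.59), and in the overexpressed Millipore list it was 0.773 points (-0.712 to 2.26). The share followed rank as well. It fell from 27.9% of the members in the best-ranked 25% to 11.5% in the last in the basal Millipore list, from 20.7% to 7.03% in the overexpressed Millipore list, from 40.6% to 24.2% in the basal Perseus list and from 32.9% to 18.4% in the overexpressed Perseus list.

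The clearest gradient was with the number of lists that held a site. Among members found in 1 list the consensus was in 8.39% of basal Millipore, 8.19% of overexpressed Millipore, 22.6% of basal Perseus and 17.6% of overexpressed Perseus peaks. Among members found in all 4 lists it was in 31 of 46 (67.4%, 53.0 to 79.1), 33 of 48 (68.8%, 54.7 to 80.1), 29 of 46 (63.0%, 48.6 to 75.5) and 27 of 46 (58.7%, 44.3 to 71.7). At 2 lists the 4 shares lay between 30% and 47.2%, and at 3 lists between 41.3% and 60.0%. Over the 50 merged sites of all 4 lists, 35 (70.0%, 56.2 to 80.9) held a copy in at least 1 of their peaks.

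**Figure D3:**
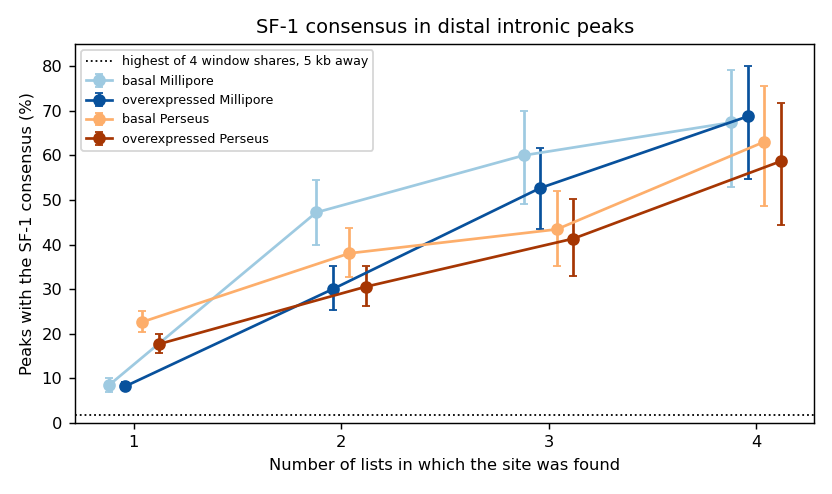
Percentage of distal intronic peaks of each list that hold the SF-1 consensus, by the number of lists in which the site was found, with 95% Wilson intervals. The dotted line is the highest of the 4 shares in windows 5 kb away, 1.69%. All 4 lists rise, from 8.19% to 22.6% at 1 list to 58.7% to 68.8% at 4 lists.

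Most of the copies were words ending in A. Of 1870 copies in members of all lists, 624 (33.4%) were TCAAGGTCA, 480 (25.7%) CCAAGGTCA, 340 (18.2%) CCAAGGCCA and 276 (14.8%) TCAAGGCCA. The 4 words ending in G, CCAAGGCCG, CCAAGGTCG, TCAAGGTCG and TCAAGGCCG, had 52, 41, 37 and 20 copies. The median distance of a copy from the peak centre was 35, 41, 33 and 33 bp in the 4 lists, in peaks with a median width of 149 bp. The copies lay within 50 bp of the centre in 73.4%, 59.0%, 70.6% and 67.7% of cases. Copies were read on the strand of the host gene in 39.7% (34.3 to 45.4) of basal Millipore, 39.4% (35.4 to 43.6) of overexpressed Millipore, 37.9% (33.8 to 42.2) of basal Perseus and 37.1% (33.0 to 41.5) of overexpressed Perseus copies, among members inside genes of 1 strand. All 4 intervals lay below an even split. The strand of copies in the windows beside the peaks was not measured, so these shares have no background. A peak could hold several copies, which 26, 64, 34 and 40 members did, and shared sites enter more than 1 list.

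A small group of members carried the sequence recognised by NRSF/REST, the repressor that silences neuronal genes outside the nervous system. The NRSF/REST consensus was accepted on either strand where no more than 4 of its 19 fixed positions mismatched. It was in 13 basal Millipore members (0.842%, 0.493 to 1.44), 21 overexpressed Millipore members (0.571%, 0.374 to 0.872), 0 basal Perseus members and 2 overexpressed Perseus members (0.110%, 0.0302 to 0.401). The interval for the 0 of 1666 basal Perseus members reached 0.230%. In the windows 5 kb away it was found in 0%, 0.136%, 0.150% and 0.0826% of cases. In the basal Perseus list 0 members stood against 5 windows, and in the overexpressed Perseus list 2 members against 3 windows. Both pairs of counts were too small to tell the shares apart. The Millipore members with it were strong and were shared between dosages: 9 of 13 and 15 of 21 were in the best-ranked 25% of their list, and 11 of 13 and 11 of 21 were found at the other dosage. No member with the NRSF/REST consensus overlapped a peak of the other antibody at the same dosage. The NRSF/REST consensus was not particular to distal introns. It was in 0.643% of basal and 0.597% of overexpressed Millipore peaks that were distal and outside genes. Among start-proximal Millipore peaks it was in 2.89% at basal and 1.10% at overexpressed dosage. In start-proximal Perseus peaks it was in 0.222% at basal and 0.410% at overexpressed dosage, against 0.0556% and 0.0789% of their windows. Distal Perseus peaks outside genes held it in 0.158% and 0.0984%, against 0.0788% and 0.0984% of their windows.

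The 11 sites with the NRSF/REST consensus that were members at both dosages with the Millipore antibody are named here after their values were seen, with the rank at basal and then at overexpressed dosage. They lay in SHANK2 (ranks 11 and 14), L1CAM (12 and 41), DLGAP4, a postsynaptic scaffold (20 and 196), VRK3, a kinase-related protein (21 and 131), UNC5A, a netrin receptor (24 and 1109), and SORCS3, a neuronal sorting receptor (31 and 132). The others lay in SYT7, a calcium sensor of exocytosis (67 and 123), CELF4, an RNA-binding protein of neurons (149 and 100), XKR6 (753 and 124), MEGF11 (1240 and 456) and SCN10A, a sodium channel (3725 and 10866). GRIA2, an AMPA glutamate receptor subunit, held the only member that matched at all 19 fixed positions, at rank 1371 of the overexpressed Millipore list alone. The SF-1 consensus was in 2 of the 25 merged sites with the NRSF/REST consensus, in POU2F2 and SH3GL1.

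Distal intronic sites were found in 3882 protein-coding genes, 28.9% of the 13451 genes with eligible bases, and 1714 genes (12.7%) held 2 or more sites. The latter number was 990 without the overexpressed Millipore list and 938 with all lists cut to their 4393 best-ranked peaks, and with starts of all transcripts counted there were 2439 host genes and 1026 with 2 or more sites. The basal Millipore list had members in 1247 genes (9.27%), the overexpressed Millipore list in 2373 (17.6%), the basal Perseus list in 1320 (9.81%) and the overexpressed Perseus list in 1428 (10.6%). A total of 300 genes held 5 or more sites and 43 held 10 or more. The genes with 2 or more sites contained 5625 of the 7665 sites (73.4%). Between neighbouring sites of a gene the median gap was 26.6 kb over 3975 pairs, with 1187 pairs (29.9%) within 10 kb and 388 within 1 kb. Of the 8702 members, 334 lay in more than 1 overlapping gene and were counted for each.

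The number of sites in a gene went with its eligible length, and density went the other way. Hosts had a median of 90.1 kb of eligible bases and genes without sites 20.02 kb. Sites were found in 4.93% of genes with up to 10 kb, 34.0% of those with 30 to 100 kb, 81.4% of those with 300 to 1000 kb and 90.0% of those with over 1000 kb. Density fell over the same classes from 13.1 to 9.50, 5.68 and 4.24 sites per Mb. The overexpressed Millipore list changed most, from 8.66 sites per Mb in genes with up to 10 kb to 1.68 in genes with over 1000 kb. The basal Millipore list changed least, from 1.56 to 1.22, and the Perseus lists went from 1.92 to 0.764 and from 3.19 to 0.837. At over 1000 kb the 2 Millipore lists thus differed by less than at any shorter length.

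**Figure D4:**
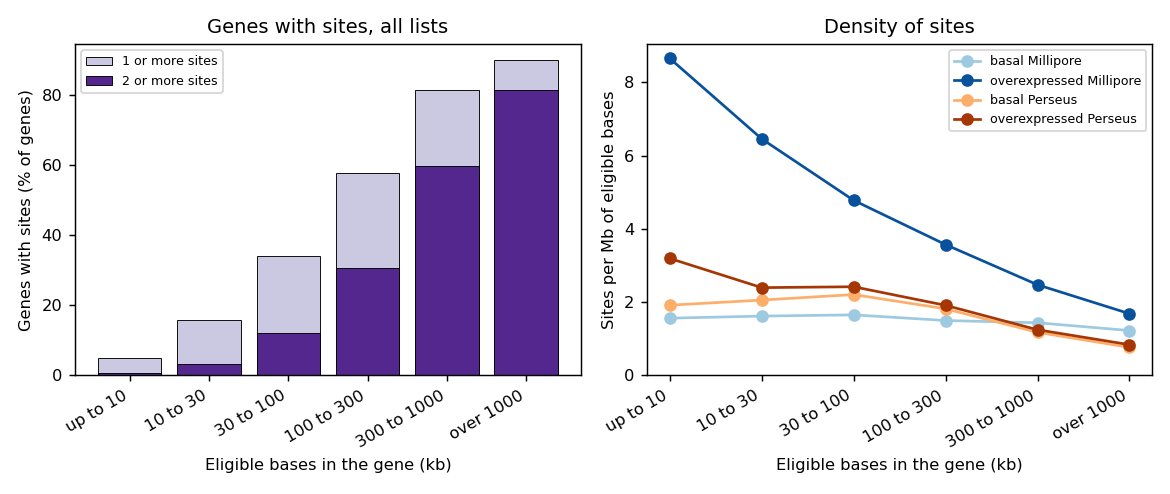
Left, percentage of protein-coding genes with 1 or more and with 2 or more distal intronic sites in any list, by the eligible bases of the gene in kb. Right, sites per Mb of eligible bases in each list over the same length classes, without error bars. The share of genes with sites rises from 4.93% to 90.0%, and the density of the overexpressed Millipore list falls from 8.66 to 1.68 sites per Mb.

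Lists could share a host gene at the same site or at separate sites, so shared hosts include genes without a shared site. Of the genes with members in both Millipore lists, 631 in all, 464 (73.5%) had their basal and overexpressed members at separate sites, and 167 had at least 1 site in common. These 631 genes were 50.6% of basal and 26.6% of overexpressed hosts. With the Perseus antibody 594 genes had members at both dosages, 45.0% of basal and 41.6% of overexpressed hosts, and 282 of them (47.5%) at separate sites. Between antibodies, 468 genes were hosts in both basal lists, 296 (63.2%) of them at separate sites, and 790 in both overexpressed lists, 491 (62.2%) at separate sites. Shared hosts were longer, with a median of 206 kb of eligible bases for the Millipore dosages against 139 kb over all basal Millipore hosts. There were 212 genes with members in all 4 lists. With Millipore 1742 genes had members at overexpressed dosage only and 616 at basal only, and with Perseus 834 and 726. The lists differ in length, and the parts of list length and gene length in these counts were not tested.

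The genes with the most sites were GSE1, VAV2, TNS3, ULK4, CADM2, TBC1D5, MAD1L1, IQSEC1 and RASA3, together with a gene that overlaps MAD1L1. These are 10 genes by the naming rule: 4 genes tied at 15 sites, and IQSEC1 and RASA3 were taken from them for their better best rank, so CNTNAP2 is described with the adhesion genes. In GSE1, VAV2, TNS3, MAD1L1 with its overlapping gene, IQSEC1 and RASA3, most sites came from the overexpressed Millipore list. GSE1, on chr16:85203131-85709810, encodes a coiled-coil protein of histone deacetylase complexes and held 23 sites, of which 2 were in the basal Millipore, 17 in the overexpressed Millipore, 5 in the basal Perseus and 5 in the overexpressed Perseus list. At the mean density of all sites its 476 kb of eligible bases would hold 3.56. VAV2, on chr9:136627016-136857726, encodes a guanine nucleotide exchange factor and held 20 sites, of which 0, 19, 1 and 1 were in the lists in that order. Its best rank in the overexpressed Millipore list was 102. With a floor of 3 counts in place of 0, the ratio of 19 sites to 0 is 6.33, without counting error, in lists with 3677 and 1544 members. At the mean density of each list VAV2 would hold 0.772 overexpressed and 0.324 basal Millipore sites. A basal count of 0 is thus near the mean density. Its 20 sites made 92.8 per Mb (56.7 to 143), where the mean density would give 1.61 sites. The genes with the most sites were named for their counts, and their intervals do not cover that choice.

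MAD1L1, a component of the spindle assembly checkpoint on chr7:1855429-2272878, held 17 sites, with 1, 16, 2 and 2 in the 4 lists. The overlapping gene ENSG00000286192 contains the same 17 sites. IQSEC1, an exchange factor for ARF GTPases on chr3:12938542-13324781, held 15 sites, with 0, 12, 3 and 4. RASA3, a GTPase-activating protein of Ras on chr13:114747194-114898098, held 15 sites, with 3, 12, 2 and 3, in 136 kb of eligible bases (110 per Mb, 61.8 to 182). TNS3, on chr7:47314752-47622156, held 19 sites, with 5, 12, 5 and 4, and 2 of them were found in all 4 lists.

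In ULK4, CADM2 and TBC1D5 the 4 lists contributed in similar numbers, and these genes were longer. ULK4, a pseudokinase of the unc-51 family on chr3:41288090-42003622, held 19 sites, with 6, 5, 7 and 5 in the lists and none with the SF-1 consensus. CADM2, a cell adhesion molecule of neurons on chr3:85008140-86123579, held 18, with 4, 5, 3 and 7. TBC1D5, a Rab GTPase-activating protein of the retromer pathway on chr3:17198654-18486309, held 18, with 7, 5, 3 and 3, none of them in 2 lists. At the mean density these 3 genes would hold 5.21, 8.14 and 9.31 sites. The largest number in the basal Millipore list was the 7 of TBC1D5, and in the basal Perseus list it was 10 in KMT2C, a histone methyltransferase, which was noticed after its values were seen. KMT2C held 14 sites in all, with 0, 0, 10 and 6 in the lists and none with the SF-1 consensus. Among its 16 member peaks the median share of repeated 32-base words was 11.1% and the highest 60.0%.

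**Figure D5:**
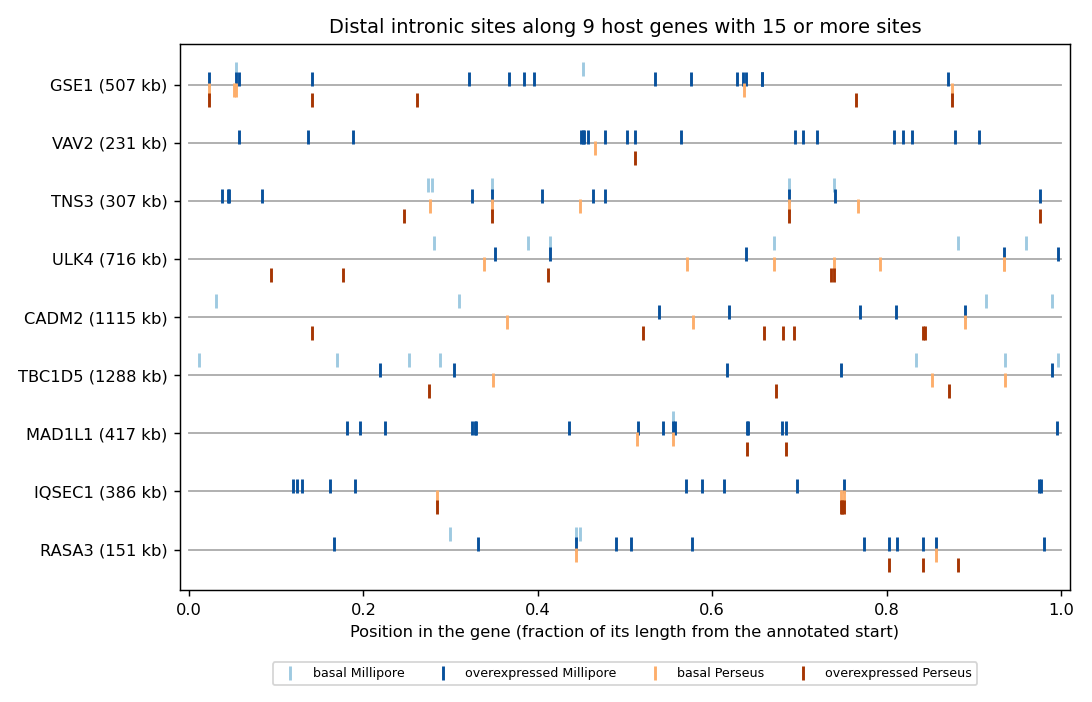
Distal intronic sites along 9 named host genes with 15 to 23 sites, each drawn from its annotated start (0) to its end (1), with the gene length beside the symbol and a tick per site and list. VAV2 has 19 ticks of the overexpressed Millipore list and none of the basal Millipore list, while ULK4 has 6, 5, 7 and 5 from the 4 lists.

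Another set of genes was dense for its size. Among genes with 4 or more sites the densest were CLN6, PWWP2B, IVD, SEMA7A, GAS6, GPSM1, KIAA1522, STK11, UROC1 and ATP6V0D1, with 9.89 to 31.8 kb of eligible bases each. CLN6, an endoplasmic reticulum protein mutated in a neuronal ceroid lipofuscinosis, held 5 sites in 10.6 kb (473 per Mb, 154 to 1104), with 2, 2, 1 and 1 in the lists. PWWP2B, a chromatin protein, held 4 sites, with 1, 3, 1 and 2, and the best rank was 55 in the overexpressed Millipore list. GAS6, the ligand of the TYRO3, AXL and MERTK receptors, held 6 sites, with 4, 2, 0 and 0. STK11, the kinase LKB1, held 7 sites, with 1, 4, 0 and 3, within 10.2 kb. SEMA7A, a membrane-anchored semaphorin, held 4, with 0, 4, 0 and 2, and 2 of them carried the SF-1 consensus. The widths of these intervals show how few sites each density rests on. They do not cover the choice of these genes by their density.

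Genes of steroid synthesis, the best-known targets of SF-1, held 15 distal intronic sites. Of 25 genes in that list 15 had eligible bases, 1.27 Mb in all, with a median of 37.3 kb against 31.6 kb over all genes. Of these, 9 (60.0%) held sites, where 28.9% of all genes with eligible bases did, and the lists had 4, 6, 2 and 3 of the 15 sites. The density was 11.8 per Mb (6.61 to 19.5), against 7.47 (7.31 to 7.64) over all genes, so the interval included the background. POR, the electron donor of microsomal P450 enzymes on chr7:75528518-75616173, held 5 sites, with 0, 4, 0 and 1, and the site at chr7:75567251-75567499 held the SF-1 consensus. HSD17B3, the testicular enzyme that makes testosterone, held 2 sites, in the Millipore lists (ranks 1936 and 3607). PAPSS2, which makes the sulfate donor for steroid sulfation, held 2, in the Perseus lists (ranks 1985 and 4501).

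The density interval of cholesterol genes included the background as well. Of 25 genes with eligible bases 11 (44%, against 28.9% of all genes) held 12 sites, 11.2 per Mb (5.79 to 19.6), and 1 of them held more than 1 site. SCARB1, the receptor that takes up cholesteryl esters from high-density lipoprotein, held 2 sites, 1 with rank 2306 in the basal and 6921 in the overexpressed Millipore list, and 1 with rank 3415 in the overexpressed Perseus list that carried the SF-1 consensus. LRP1, an endocytic receptor, held 1 site that was found in 3 lists (ranks 2322, 907 and 2115 in the basal Millipore, basal Perseus and overexpressed Perseus lists) and carried the consensus. ABCA1, a cholesterol exporter, held 1 site, at rank 688 of the overexpressed Millipore list. Of 16 adrenal and gonadal transcription factor genes 4 (25%) held 5 sites, 5.27 per Mb (1.71 to 12.3). NR5A1, which encodes SF-1, held 1 site, chr9:127249901-127250299, 19.6 kb from its start, at rank 3773 of the overexpressed Millipore list and in no other list. MEIS2, a homeodomain protein, held 1 site.

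Among channel and adhesion genes, the voltage-gated calcium channels stood above the background density over genes of all lengths and the adhesion genes below it. Both lists had long genes, with a median of 165 and 924 kb of eligible bases against 31.6 kb over all genes, and their shares of host genes stand beside 28.9% over all genes with eligible bases. Of 18 calcium channel genes 12 (66.7%) held 62 sites, 13.5 per Mb (10.3 to 17.3), with 12, 43, 9 and 9 in the 4 lists. The overexpressed Millipore list thus had 43 of these 62 sites, and 3819 of the 7977 sites counted over all genes. CACNA1C, an L-type channel, held 11 sites, with 2, 7, 1 and 1. CACNA2D3, an auxiliary subunit, held 10, with 4, 6, 4 and 1 and a best rank of 63. CACNA1D, an L-type channel active in aldosterone-producing cells, held 9, with 2, 6, 2 and 3 and a best rank of 111. Of 40 neuronal and synaptic adhesion genes 36 (90.0%) held 169 sites, yet their density was 4.36 per Mb (3.73 to 5.07), since they offered 38.8 Mb of eligible bases. By length, density was 7.76 sites per Mb in all genes with 100 to 300 kb of eligible bases. It was 5.68 with 300 to 1000 kb and 4.24 with over 1000 kb. The part of gene length in the densities of these 2 gene lists was not tested. CNTNAP2, a neurexin-like protein, held 15 sites where its 2274 kb would hold 17.0 at the mean density, and CTNND2, a catenin of neurons, held 9, where the mean density would give 6.84.

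The gene lists that follow had intervals that included the background of 7.47 sites per Mb. Their median eligible length was 80.6 to 298 kb, against 31.6 kb over all genes, and their shares of host genes stand beside 28.9% over all genes with eligible bases. Of 31 genes of the ACTH receptor and cAMP-PKA pathway 19 (61.3%) held 56 sites, 8.09 per Mb (6.11 to 10.5), with 19, 21, 15 and 13 in the lists. Phosphodiesterases, which degrade cAMP, led it: PDE4D held 11 sites, with 4, 3, 4 and 3, PDE11A 6, with 3, 1, 2 and 4, and PDE7B 5, with 2, 1, 2 and 0. The best rank of PDE11A was 119 with Millipore (basal dosage) and 425 with Perseus (overexpressed dosage). Of 34 Wnt genes 16 (47.1%) held 32 sites, 8.01 per Mb, among them ROR2 with 7, with 3, 4, 3 and 3, and AXIN2 and RYK with 3 each. AXIN2, a negative regulator of the pathway, had best ranks of 66 with Millipore (basal dosage) and 570 with Perseus (overexpressed dosage). Of 33 potassium channel genes 22 (66.7%) held 77 sites, 7.79 per Mb, with 12, 43, 12 and 14. KCNMA1, the large-conductance calcium-activated channel, held 9, with 1, 5, 0 and 4, and KCNT1, a sodium-activated channel, held 8 in 66.0 kb, with 1, 6, 0 and 1. KCNIP4 held 6.

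Of 39 axon guidance genes 24 (61.5%, against 28.9% of all genes) held 88 sites, 6.71 per Mb. ROBO2, a receptor for SLIT ligands, held 12 sites and was free of overexpressed Millipore members, with 5, 0, 4 and 3, while its 1712 kb would hold 6.13 of them at that list's mean density. SEMA6D held 11, with 4, 2, 3 and 3 and a best rank of 53, and EPHA6, an ephrin receptor, held 8, with 3, 1, 3 and 3. Of 32 nuclear receptor genes other than NR5A and NR0B 18 (56.2%) held 44 sites, 7.95 per Mb, with 8, 11, 18 and 14, so the Perseus lists contributed most. RXRA, the common partner of many nuclear receptors, held 8 in 102 kb, with 1, 2, 3 and 3, NR6A1 held 6, with 0, 1, 4 and 2, and THRB held 4. Of 35 angiogenesis and matrix genes 19 (54.3%) held 55 sites, 9.80 per Mb (7.38 to 12.8), with 6, 35, 17 and 10. FBN1, the microfibril protein, held 8, with 0, 5, 3 and 0, COL5A1 held 6, with 0, 5, 1 and 0, and COL18A1, the precursor of endostatin, held 5, all of them found in the overexpressed Millipore list and 3 of them in 2 or more lists.

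Density differed widely between chromosomes. It was highest on chromosome 19, with 18.2 sites per Mb of eligible bases (16.2 to 20.5), and on chromosome 9, with 15.6 (14.4 to 16.9). Among the chromosomes with sites it was lowest on the X chromosome, with 1.44 (1.10 to 1.85). The Y chromosome held no site. Chromosome 9, which carries NR5A1 and VAV2, held 649 sites in 41.6 Mb. It had the highest density of the chromosomes in the basal lists, with 2.65 sites per Mb for Millipore and 3.42 for Perseus. In the overexpressed lists its 8.13 and 4.07 sites per Mb followed the 11.1 and 5.03 of chromosome 19. The X chromosome held 61 sites in 42.3 Mb, with 0.378, 0.804, 0.2601 and 0.213 per Mb.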

How the data were processed

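The data were 4 deposited peak lists (BED) from ChIP-seq of SF-1 in the cells described above. The authors mapped reads to hg19 with ELAND, and the submitters' processing notes name CASAVA 1.6. Peaks were called with CisGenome SeqPeak on the 3 libraries of a condition pooled against input, with reads extended by 150 bases and a local window of 10 kb. The deposited score is the same for every peak and was not used. Per the file headers and values, starts lie on a grid, and the fourth column is a rank whose basis is not stated. Read numbers are not given in the files, so the depth and its precision are unknown.

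Peaks were placed on GRCh37, the hg19 assembly, with the GENCODE 44 annotation mapped to it (20163 protein-coding genes). Overlapping members of any list were merged into sites. Windows of the same width 5 kb to each side of a peak gave the background of each consensus. Shared positions were counted at an overlap of at least 1 bp. Eligible bases are known bases that meet the rule for members. Repeated sequence was measured as the share of 32-base words, read every 8 bases, that occur more than once in the assembly. With 1 list per group no test was run, and all 4 lists share the input control. Named sites and hosts followed a rule: the 3 best-ranked members of each list, the 5 sites of all 4 lists with the best worst rank, the 10 hosts with the most sites, the 10 densest hosts with 4 or more sites, and up to 3 hosts with the most sites of each of 12 gene lists. The result of 1 gene list and of 1 named host is not reported here. The members and the gene lists were chosen with earlier results of these data known. Alternatives covered the distance from starts, the starts and exons that count, the length of the lists, assembly gaps, the overlap, the form of the consensus, its windows, merging and overlapping genes. Counting, merging and sequence searches were tested on simulated data. Software was Python 3.11.15, numpy 2.4.6, pandas 2.3.3, scipy 1.17.1, statsmodels 0.14.6 and samtools 1.23.1.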

Additional observations from a re-analysis of the deposited data

Results flagged for a closer look

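In 2 measures the difference between SF-1 dosages had opposite signs with the 2 antibodies, each from 1 list per group. Both Perseus intervals included 0, so no Perseus change is shown, and the difference between antibodies was not tested. Distal intronic peaks as a share of peaks more than 10 kb from starts changed from basal to overexpressed dosage by 2.39 percentage points with Millipore (42.1% to 44.5%, interval 0.460 to 4.31) and by -0.176 points with Perseus (42.5% to 42.4%, interval -2.32 to 1.96). The share of members found in no other list changed by 6.36 points with Millipore (80.3% to 86.7%, interval 4.14 to 8.68) and by -2.76 points with Perseus (71.2% to 68.4%, interval -5.80 to 0.297).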

How the results depend on the processing

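In 82 recomputed values, against 66 that moved, the result stayed within its interval, or a count within 1.5 times, and no direction was tested. Values below follow the order basal Millipore, overexpressed Millipore, basal Perseus and overexpressed Perseus unless named. The share of peaks that are distal intronic was 37.8%, 34.6%, 27.96% and 27.4% beyond 5 kb from starts, 20.97%, 15.3%, 13.5% and 12.4% beyond 50 kb, and 22.7%, 17.9%, 15.4% and 14.4% when starts of all transcripts counted. Host genes then numbered 1843 (905 with 2 or more sites) beyond 50 kb and 2439 (1026) with all transcript starts. When the whole peak had to avoid exons, the share was 28.6% in the overexpressed Millipore, 23.9% in the basal Perseus and 23.1% in the overexpressed Perseus list.

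With the better-ranked 50% of each list, the share was 22.2% and 21.3% in the Perseus lists, sharing of overexpressed Perseus members with the other antibody was 20.5%, the consensus was in 21.5%, 16.3%, 33.3% and 28.6% of members, and there were 2300 hosts, 783 of them with 2 or more sites. With all lists cut to 4393 peaks by rank, the share was 23.1% and 22.1% in the Perseus lists, sharing between dosages 7.06%, 8.02% and 17.2% in the first 3 lists (the order of the Millipore lists turned), sharing between antibodies 8.35%, 12.2% and 12.7% in the same lists, the consensus share 18.4% in the overexpressed Millipore (above the 17.3% of the basal one, where it was below at full length), 31.1% in the basal Perseus and 27.5% in the overexpressed Perseus list, and 938 hosts held 2 or more sites. Without peaks beside assembly gaps the best-ranked 25% of the basal Perseus list held 21.1% members. With an overlap of 50% of the shorter peak, sharing between antibodies was 7.78% and 15.9% in the overexpressed lists. Within 500 bp, sharing between dosages was 13.2%, 5.71%, 22.3% and 20.4%, and between antibodies 11.3% and 21.5% in the overexpressed lists.

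With the single word TCAAGGTCA the consensus share was 6.67%, 2.86%, 12.2% and 8.15% (windows 0.0648%, 0.231%, 0.120% and 0.193%). With the shorter core AAGGTCA it was 14.4%, 23.3% and 20.7% in the basal Millipore, basal Perseus and overexpressed Perseus lists (windows of all 4 lists 2.46%, 3.15%, 2.88% and 3.11%). Windows 2 kb away held the consensus in 1.52% of cases beside overexpressed Perseus members. Among alternatives chosen after seeing the data, leaving out the overexpressed Millipore list left 990 genes with 2 or more sites, and leaving out repeated sequence moved no value beyond its interval. The cause of these changes was not tested. No paired analysis was possible because each group has 1 list and no test was run. Unknown read depth limits what a missing peak means.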
